A study of Mus musculus with 8 samples.

Results

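Expression of 9 genes that report and restrain signalling from fibroblast growth factors (FGFs) through the kinase ERK was examined in fetal mouse ovaries whose germ cells had lost the BMP receptor gene Bmpr1a. The genes were the ETS transcription factors Etv4 and Etv5, the Sprouty genes Spry1, Spry2 and Spry4, the MAP kinase phosphatases Dusp4 and Dusp6, and the Sprouty-related genes Spred1 and Spred2. They were taken by symbol from 25239 genes in the count files, as known readouts of ERK activity and because Etv4 had been seen to rise in Bmpr1a-cKO ovaries. The comparison of genotypes therefore helped to choose them, and its values for these 9 genes are given as a description without a test. Each of the 8 RNA-Seq libraries was made from pooled ovary pairs of E14.5 C57BL/6 embryos. The 4 control libraries came from Bmpr1a fl/fl embryos and the 4 Bmpr1a-cKO libraries from Bmpr1a fl/fl; Oct4-Cre Cre/WT littermates. All of the mothers had been given 4-hydroxytamoxifen (1 mg) and progesterone (0.5 mg) by intraperitoneal injection on each day from 9.5 to 11.5 dpc, so drug exposure was common to both genotypes. Only Bmpr1a-cKO embryos carried the inducible Cre, which the Oct4 locus expresses in germ cells at this age, and effects of the Cre and of the deletion cannot be told apart. The ovaries were not sorted, and their somatic cells kept Bmpr1a.

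FGFs bind receptor tyrosine kinases, which recruit the adaptor FRS2 and the exchange factor SOS1 to switch on RAS. RAS then activates the kinases RAF, MEK and ERK in turn. Active ERK raises transcription of Etv4 and Etv5, in many tissues by relieving repression by Capicua (Cic). It also induces its own inhibitors, in that Sprouty and SPRED proteins restrain RAS and RAF and nuclear DUSP4 and cytoplasmic DUSP6 remove the activating phosphates from ERK. In the fetal gonad FGF9 is best known for its part in testis determination and in holding back meiosis in male germ cells. Other receptor tyrosine kinases, including KIT, feed into the same cascade.

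The depth was 8562961 to 15365052 counts per library. Levels are given as CPM, read counts relative to the TMM-scaled library size, and differences as Log2FC of Bmpr1a-cKO over control with its standard error (SE) from edgeR. A value after ± is the SD over n = 4 libraries of a genotype. In all, 14249 genes passed the filter on low counts, and 1449 (10.2%) were DEGs, defined by an absolute Log2FC over 0.5 and an FDR below 0.05. Of these, 871 were higher (6.11% of genes tested) and 578 lower (4.06%) in Bmpr1a-cKO ovaries, against 332 and 2798 when libraries were scaled to germ cell markers, which moved the median Log2FC of all genes from -0.004 to -0.341. Bmpr1a, the targeted gene, had 199 to 237 CPM in control versus 185 to 209 CPM in Bmpr1a-cKO libraries, which does not check the labels because somatic cells express it. The summed level of 8 germ cell markers, led by Dazl, was 592 to 785 CPM in control versus 635 to 1003 CPM in Bmpr1a-cKO libraries, with p = 0.0857 by a two-sided exact permutation test and 0.154 when adjusted over 9 marker lists. All 8 were detected, with 3 higher and 2 lower at an FDR below 0.05 by edgeR. The study reported Dazl as upregulated in Bmpr1a-cKO ovaries and another of the markers, Ddx4 (Mvh), as not dependent on BMP signalling. The sum, and scaling to it, therefore do not measure germ cell content alone. Pregranulosa markers summed to 1191 to 1321 CPM in control versus 942 to 1171 CPM in Bmpr1a-cKO libraries, and Sertoli cell markers to 13.2 to 14.8 and 10.4 to 11.5 CPM. Macrophage markers summed to 33.1 to 41.3 and 44.0 to 55.4 CPM. At an FDR below 0.05 by edgeR, 6 of 8 tested pregranulosa and 1 of 5 tested Sertoli cell markers were lower, and 0 higher. Of the 6 tested macrophage markers, 4 were higher and 0 lower. The Sertoli cell sum was low and led by Sox9, and it does not show that such cells were present. The libraries of the genotypes did not overlap for these 3 lists (exact permutation test, two-sided, p = 0.0286 each, the smallest that 4 against 4 libraries allow, adjusted 0.0857), and they overlapped for stroma, steroidogenic cells, endothelium, erythroid cells and mesonephros. Without Bmpr1a-cKO library 1 the lists without overlap were 6, with germ cells, steroidogenic cells and mesonephros added. In whole ovaries a change in the number of cells of a type and a change in RNA per cell cannot be told apart.

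All 9 genes passed the filter. Etv4, Etv5, Dusp4 and Spred2 met the thresholds of a DEG, all of them upregulated, and Spry1, Spry2, Spry4, Dusp6 and Spred1 did not. That is 4 of 9 genes, beside 10.2% of all genes tested, a count from which nothing is read because this comparison helped to choose the genes. The median Log2FC of the 9 genes was 0.11. In 3 of them, Etv4, Etv5 and Spred2, all Bmpr1a-cKO libraries lay above all control libraries, as was so for 16.1% of all genes tested. In Spry2 they lay below. Over both directions 27.9% of all genes tested had libraries that did not overlap.

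**Figure D1:**
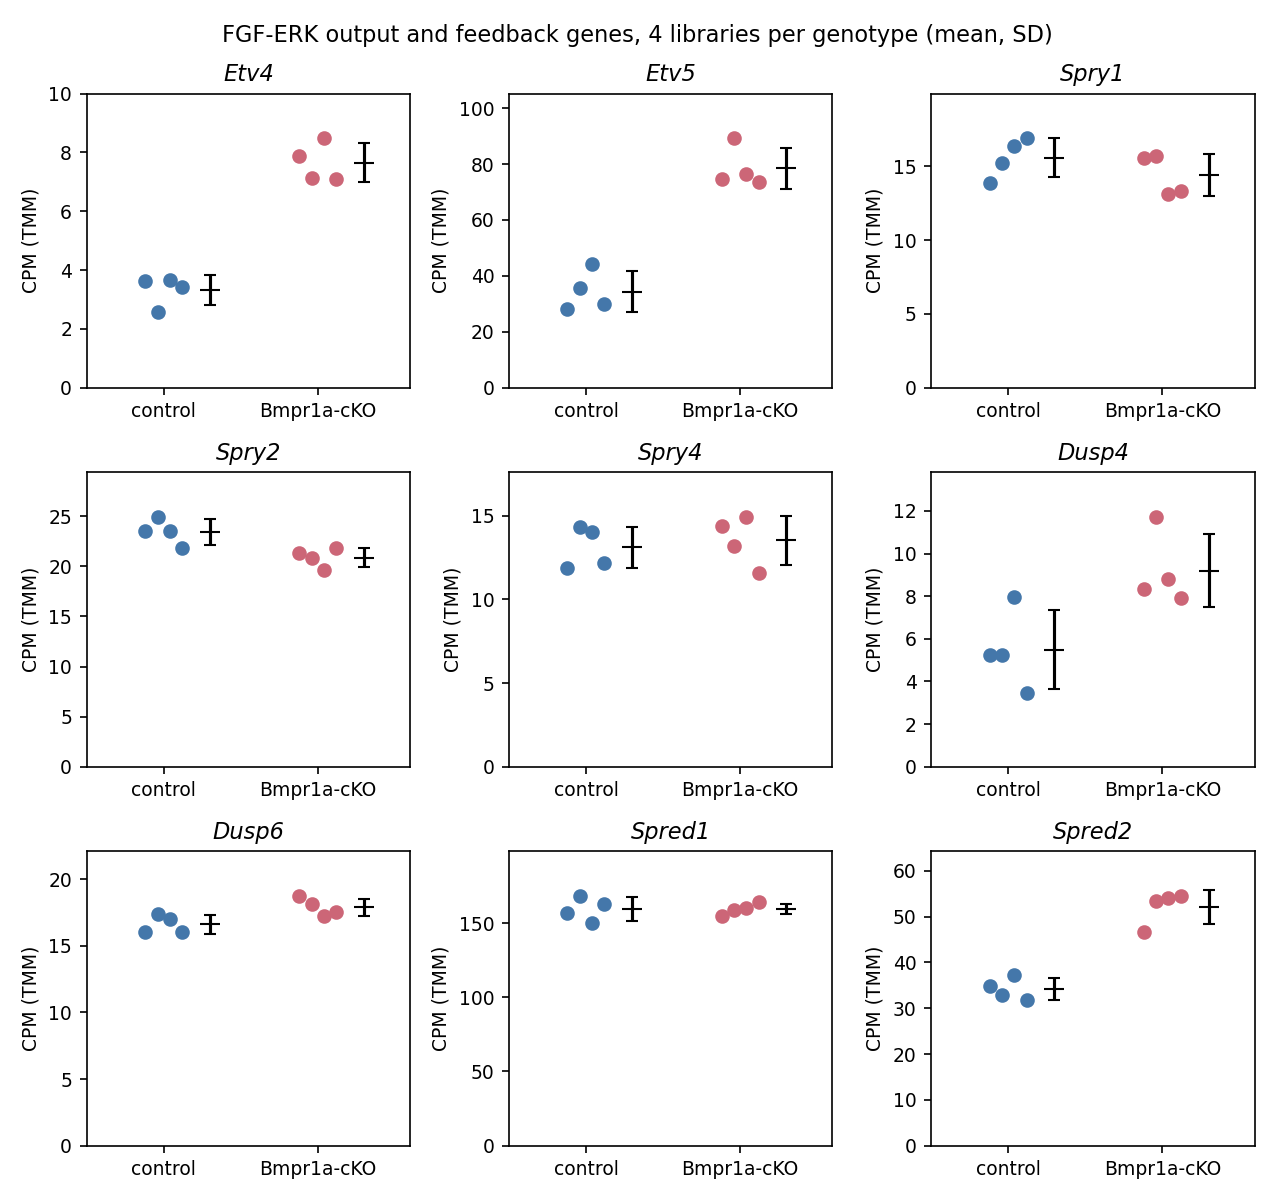
Level of each of the 9 genes in CPM (linear axes from 0, a panel per gene) in the 4 control and the 4 Bmpr1a-cKO libraries; points are libraries, and a line with whiskers beside them gives the mean and SD. Etv4, Etv5 and Spred2 show no overlap between the genotypes with Bmpr1a-cKO above, whereas Dusp4 overlaps through control library 3 at 7.96 CPM, and Spry1, Spry4, Dusp6 and Spred1 overlap.

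**Figure D2:**
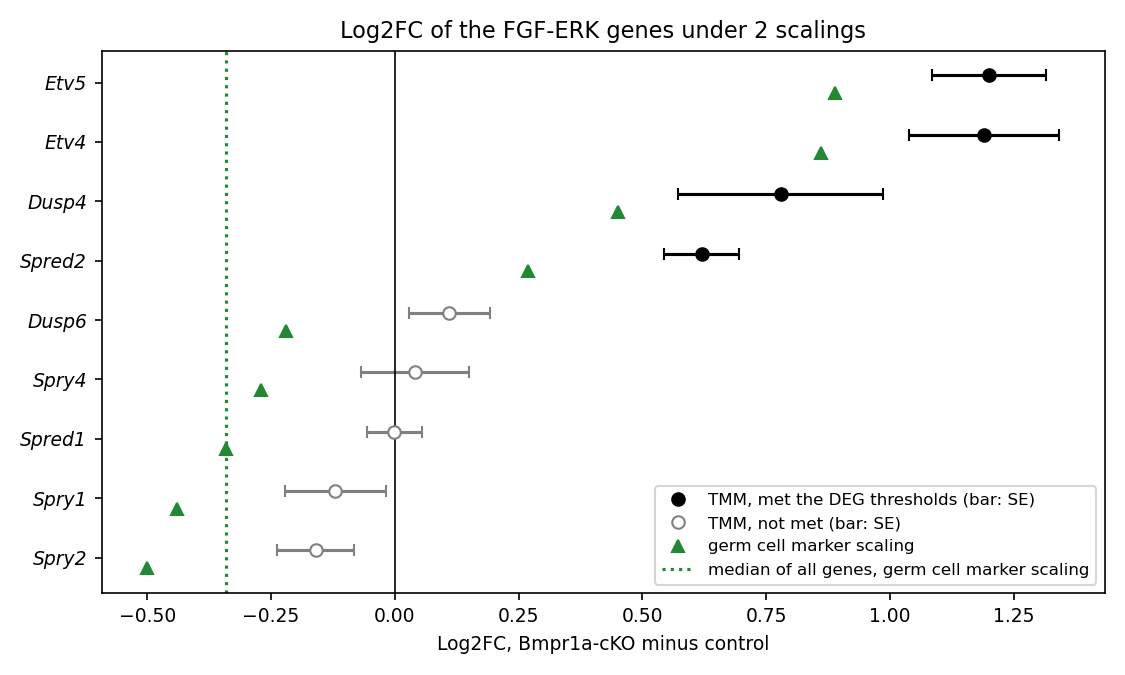
Log2FC of Bmpr1a-cKO over control for the 9 genes under TMM scaling (circles with the SE from edgeR, filled where the thresholds of a DEG were met) and under scaling to germ cell markers (triangles), with the median of all genes under the latter at -0.341 as a dotted line. Etv5 (1.20), Etv4 (1.19), Dusp4 (0.78) and Spred2 (0.62) stand apart from the other genes, which lie between -0.16 and 0.11 under TMM; under germ cell marker scaling Etv5 is at 0.89 and Etv4 at 0.86.

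The ETS factors Etv4 and Etv5 belong to the PEA3 group and are the transcriptional output of the pathway. Etv4 (chromosome 11, 101769742 to 101785371, minus strand, mm10) had 3.62, 2.57, 3.65 and 3.41 CPM in control libraries 1 to 4 and 7.87, 7.14, 8.48 and 7.10 CPM in Bmpr1a-cKO libraries 1 to 4. These values rest on 29 to 104 counts per library. The mean rose from 3.31 ± 0.507 to 7.65 ± 0.659 CPM, 2.29-fold, a Log2FC of 1.19 (SE 0.152). The lowest Bmpr1a-cKO library was well above the highest control library. Etv5 (chromosome 16, 22381309 to 22439719, minus strand), which was the more abundant of the pair, had 28.1, 35.5, 44.1 and 29.8 CPM in control versus 74.8, 89.2, 76.3 and 73.6 CPM in Bmpr1a-cKO libraries. Its mean rose from 34.4 ± 7.22 to 78.5 ± 7.27 CPM, 2.3-fold, a Log2FC of 1.20 (SE 0.115). Again every Bmpr1a-cKO library exceeded every control library, and control library 3 was the highest of its group.

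Both ETS genes rose by about the same factor. Per kilobase of exon, the ratio of Etv4 to Etv5 within a library was 0.132 ± 0.0349 in control and 0.130 ± 0.0179 in Bmpr1a-cKO ovaries, with overlapping libraries. Germ cell markers were also higher on average in Bmpr1a-cKO ovaries, 1.27-fold, with overlapping libraries. Per 1000 CPM of those markers, Etv5 was at 47.5, 51.6, 56.2 and 50.3 in control and at 118, 103, 87.1 and 73.3 in Bmpr1a-cKO libraries. Etv4, on the same scale, was at 5.06 ± 1.08 in control and 9.34 ± 2.29 in Bmpr1a-cKO ovaries. Both genes were 1.85-fold higher on this scale and without overlap, though the scale is led by Dazl, which the study itself reported as upregulated. The part of macrophage, pregranulosa and Sertoli cell marker levels in these values was not tested.

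Promoter windows from RefSeq (GRCm38.p6) were examined for 6 of the 9 genes. No window was examined for Etv4, Spry4 and Dusp4, which does not show that RefSeq lacks one. The windows span 300 bases around a start site, mostly upstream of it, and are written 5′ to 3′ on the strand of the gene. Those of Etv5, which has 2 start sites, and of Spred2 are printed because both genes rose, and that of Spry2 because it holds an ETS core in a gene that did not rise. Capitals mark the motifs found on either strand, namely the ETS core CCGGAA, the core AGGAAG bound by the PEA3 group and the GC element GGCGCC bound by SMAD proteins of the BMP pathway, a palindrome. The last 2 motifs were added after the values of the genes had been seen.
Etv5, chr16:22439521-22439820, minus strand: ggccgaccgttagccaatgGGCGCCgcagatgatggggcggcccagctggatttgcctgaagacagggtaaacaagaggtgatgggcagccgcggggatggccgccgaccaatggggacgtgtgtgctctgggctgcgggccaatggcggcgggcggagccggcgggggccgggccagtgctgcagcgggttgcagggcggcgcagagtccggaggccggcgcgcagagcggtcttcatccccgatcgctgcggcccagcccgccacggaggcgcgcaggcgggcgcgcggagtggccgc
Etv5, chr16:22438319-22438618, minus strand: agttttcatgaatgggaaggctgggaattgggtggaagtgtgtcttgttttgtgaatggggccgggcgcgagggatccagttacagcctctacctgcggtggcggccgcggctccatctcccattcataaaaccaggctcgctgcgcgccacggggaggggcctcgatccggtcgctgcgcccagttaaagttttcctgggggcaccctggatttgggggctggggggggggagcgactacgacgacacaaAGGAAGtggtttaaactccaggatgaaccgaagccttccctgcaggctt
Spred2, chr11:19924192-19924491, plus strand: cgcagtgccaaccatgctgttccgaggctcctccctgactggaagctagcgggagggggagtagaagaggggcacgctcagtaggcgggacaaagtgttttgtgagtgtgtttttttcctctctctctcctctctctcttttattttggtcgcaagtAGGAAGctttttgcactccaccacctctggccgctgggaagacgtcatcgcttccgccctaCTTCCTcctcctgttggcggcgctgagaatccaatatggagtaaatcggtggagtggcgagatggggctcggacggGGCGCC
Spry2, chr14:105896770-105897069, minus strand: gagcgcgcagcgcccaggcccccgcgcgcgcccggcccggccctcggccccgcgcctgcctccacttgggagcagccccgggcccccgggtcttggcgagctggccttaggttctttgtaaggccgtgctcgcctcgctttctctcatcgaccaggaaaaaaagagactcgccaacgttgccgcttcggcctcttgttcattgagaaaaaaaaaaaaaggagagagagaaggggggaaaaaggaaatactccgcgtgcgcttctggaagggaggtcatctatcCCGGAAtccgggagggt
Of the octamers bound by Capicua, only the forms TGAATGAA and TGAATGGA were searched for, and other forms were not. Neither of the 2 was in any of the 7 windows, nor in most promoters, since 2.47% of 32851 windows held either one. That share counts these 2 forms alone. Other forms may stand unmarked in the windows, which are therefore not shown to lack a Capicua octamer. The ETS core, in 14.9% of all windows, was found in Spry2 alone among the 6 genes. AGGAAG, in 35.4% of all windows, was in Etv5, in Spred2 at 2 places and, in a window not printed, in Dusp6. GGCGCC, in 11.9% of all windows, was in Etv5 and Spred2 and, in a window not printed, in Spred1. The window of Spry1 held none of these motifs. Matches of this length describe the letters of the window and not bound sites.

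Dusp4 and Dusp6 encode the phosphatases that act on ERK in the nucleus and in the cytoplasm. Dusp4 (chromosome 8, 34807297 to 34819894, plus strand) had 5.26, 5.22, 7.96 and 3.47 CPM in control versus 8.35, 11.7, 8.79 and 7.91 CPM in Bmpr1a-cKO libraries. The mean rose from 5.48 ± 1.85 to 9.20 ± 1.74 CPM, 1.72-fold, a Log2FC of 0.78 (SE 0.207). The genotypes overlapped narrowly, as control library 3 was slightly above Bmpr1a-cKO library 4. Without Bmpr1a-cKO library 2, the Log2FC was 0.63 and Dusp4 no longer met the thresholds. It also missed them under scaling to germ cell markers, with a Log2FC of 0.45.

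Dusp6, often used as a readout of FGF signalling in embryos, had 16.0, 17.4, 17.0 and 16.0 CPM in control versus 18.7, 18.1, 17.2 and 17.5 CPM in Bmpr1a-cKO libraries. Its Log2FC was 0.11 (SE 0.0821), and it turned to -0.22 under scaling to germ cell markers. The 2 phosphatase genes thus differed in their values, with a ratio of Dusp4 to Dusp6 per kilobase of 0.376 ± 0.12 in control against 0.589 ± 0.108 in Bmpr1a-cKO libraries, but these ratios overlapped between genotypes. Control library 3 had the highest ratio of its group at 0.537.

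Spred1 and Spred2 encode membrane proteins that hold back the activation of RAF by RAS. Spred2 (chromosome 11, 19924375 to 20024026, plus strand) had 34.9, 32.9, 37.2 and 31.7 CPM in control versus 46.6, 53.4, 54.1 and 54.4 CPM in Bmpr1a-cKO libraries. The mean rose from 34.2 ± 2.41 to 52.1 ± 3.71 CPM, 1.53-fold, a Log2FC of 0.62 (SE 0.0753). Bmpr1a-cKO library 1 was the lowest of its group and still above every control library. Spred1, the most abundant of the 9 genes, had 157, 168, 150 and 163 CPM in control versus 155, 159, 160 and 164 CPM in Bmpr1a-cKO libraries, and its mean in Bmpr1a-cKO was 0.999 of that in control (SE of the Log2FC 0.0554).

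The 2 Spred genes did not move in parallel. The ratio of Spred2 to Spred1 per kilobase was 0.326, 0.288, 0.364 and 0.285 in control and 0.441, 0.492, 0.497 and 0.489 in Bmpr1a-cKO libraries. This ratio is taken within a library and does not depend on its scaling, and all Bmpr1a-cKO values were above all control values. Per 1000 CPM of germ cell markers, Spred2 was at 51.9 ± 5.5 in control and 62.8 ± 7.9 in Bmpr1a-cKO ovaries, with overlap, and under scaling to these markers its Log2FC was 0.27, below the threshold.

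**Figure D3:**
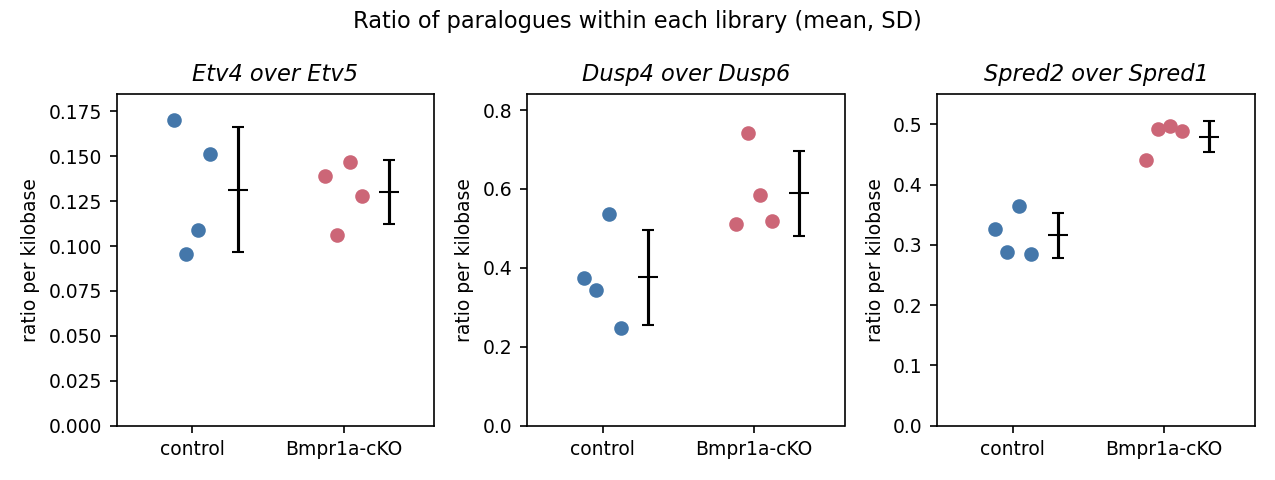
Ratios of Etv4 to Etv5, Dusp4 to Dusp6 and Spred2 to Spred1 within each library, from levels per kilobase of exon (linear axes from 0); points are libraries, and a line with whiskers gives the mean and SD. The ratio of Spred2 to Spred1 is separated between the genotypes (0.285 to 0.364 against 0.441 to 0.497), and the other ratios overlap.

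Sprouty genes encode cytoplasmic inhibitors of signalling by receptor tyrosine kinases, and none of the 3 examined met the thresholds. Spry2 had 23.5, 24.9, 23.5 and 21.8 CPM in control versus 21.3, 20.8, 19.6 and 21.8 CPM in Bmpr1a-cKO libraries, a Log2FC of -0.16 (SE 0.0782). Control library 4 and Bmpr1a-cKO library 4 were almost equal. Spry1 ran from 13.9 to 16.9 CPM in control versus from 13.1 to 15.7 CPM in Bmpr1a-cKO libraries, with a Log2FC of -0.12 (SE 0.102). It shares 710 bases of exon with Gm42922 on the opposite strand, and as whether counting used strand is not given in the sources used here, reads of the 2 genes may have been mixed. Spry4 had 11.9 to 14.3 CPM in control versus 11.6 to 14.9 CPM in Bmpr1a-cKO libraries, with a Log2FC of 0.04 (SE 0.109) that turned to -0.27 under scaling to germ cell markers. Summed over the 3 genes, Sprouty transcripts were at 52.1 ± 2.39 CPM in control versus 48.9 ± 2.12 CPM in Bmpr1a-cKO ovaries, with overlapping libraries. The ratios of Spry1 to Spry2 (means 0.480 and 0.496) and of Spry4 to Spry2 (means 0.245 and 0.286) overlapped as well. Per 1000 CPM of germ cell markers, the Bmpr1a-cKO means of the 3 Sprouty genes, Dusp6 and Spred1 were 0.713 to 0.866 of the control means, each with overlapping libraries.

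Levels of the 9 genes were compared with each other only per length, as CPM per kilobase of the union of exons (RPKM). In control ovaries Spred1 was highest at 23.5 RPKM and stood apart from the next gene. Spry2 (11.2 RPKM), Etv5 (8.38 RPKM) and Spred2 (7.40 RPKM) followed, and neighbours in this order overlapped. Spry1 (5.37 RPKM) and Dusp6 (5.29 RPKM) were next and overlapped each other, as did Spry4 (2.75 RPKM) and Dusp4 (2 RPKM) below them. Etv4 was lowest at 1.07 RPKM. In Bmpr1a-cKO ovaries the order began with Spred1 (23.5 RPKM) and Etv5 (19.1 RPKM), which did not overlap each other. Etv5 was thus above Spry2 in this order, unlike in control, and stood clear of Spred2 (11.3 RPKM) and Spry2 (10 RPKM), which overlapped. Dusp6 (5.70 RPKM) and Spry1 (4.96 RPKM) stood apart from each other, and Dusp4 (3.36 RPKM), Spry4 (2.85 RPKM) and Etv4 (2.46 RPKM) overlapped as neighbours at the low end.

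**Figure D4:**
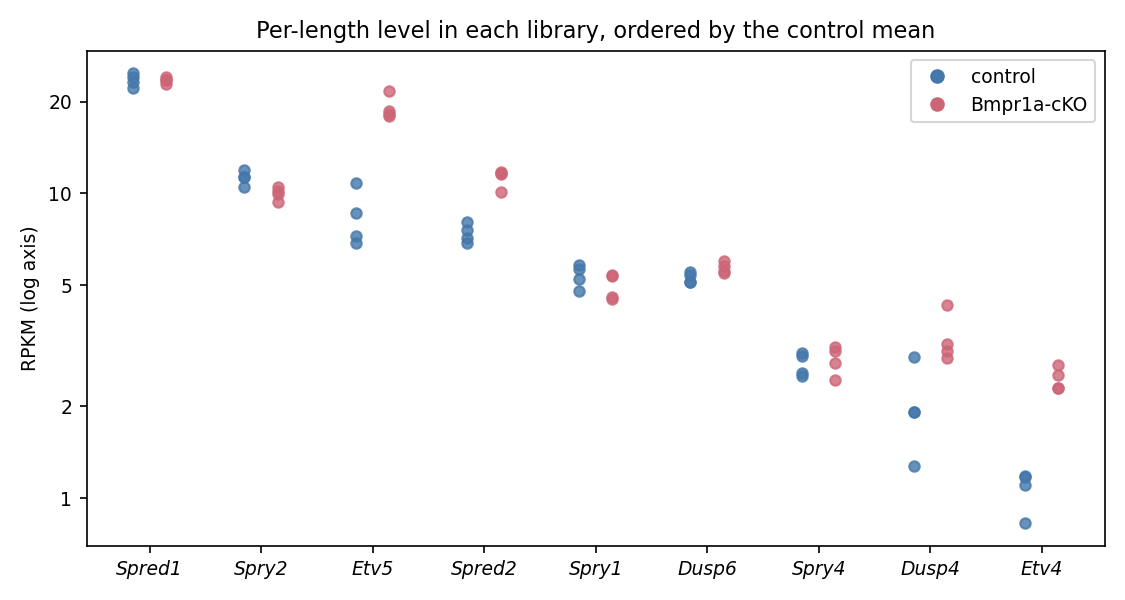
Levels of the 9 genes in RPKM (log axis) in control and Bmpr1a-cKO libraries, in the order of the control means; points are libraries. Spred1 is highest in both genotypes, and Etv5 goes from 8.38 to 19.1 RPKM while Etv4 remains the lowest at 1.07 and 2.46 RPKM.

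Pearson's correlation of log2 CPM with Etv4 over the 8 libraries, which fall into 2 genotypes and share their depth with every gene, was computed to describe likeness. The 5 genes most like Etv4 were Eif2ak4 (r = 0.994), Gm10451 (0.992), Inpp4a (0.992), Qtrt1 (0.992) and Osbpl3 (0.991). With values centred within genotype, r with Etv4 was 0.916, 0.887, 0.877, 0.966 and 0.908 for the same genes. As these 5 were picked for the highest r on the same libraries, the choice itself favoured a high centred r. Of the other 8 genes, Spred2 (0.943) and Etv5 (0.910) were most like Etv4 over the 8 libraries, but centred within genotype their r was 0.227 and -0.118. Etv4 had coefficients of variation of 15.3% (control) and 8.62% (Bmpr1a-cKO) at 29 to 104 counts per library, which is near counting error, so centred correlations with it say little about shared variation. Over all pairs of the 9 genes the centred r ran from -0.735 for Etv4 and Spred1 to 0.828 for Etv5 and Dusp4, which are named as the extremes of the matrix.

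Other genes of the pathway were taken from 7 lists of its ligands, receptors, adaptors, kinases, inhibitors and target genes, and these were tested by edgeR over all genes. Of 90 genes listed, 72 were tested, and 14 were higher and 9 lower in Bmpr1a-cKO ovaries at an FDR below 0.05. This was 31.9% of those tested, beside 17.3% of all genes higher and 12.5% lower at that FDR. The same shares of all genes stand beside the counts of each list below. As DEGs, 5 were upregulated and 4 downregulated (12.5%, beside 10.2% of all genes), and the median Log2FC was 0.05. The 5 include Egr4, which passed the filter on low counts through its Bmpr1a-cKO libraries alone. Under scaling to germ cell markers the DEGs were 2 upregulated and 11 downregulated, and without the filter on low counts they were 6 and 6.

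None of the 6 FGF ligands tested passed an FDR of 0.05 by edgeR. Fgf9 had 3.07 ± 0.738 CPM in control versus 3.21 ± 0.41 CPM in Bmpr1a-cKO ovaries, a Log2FC of 0.07 (FDR = 0.819 by edgeR). The lowest FDR among the ligands was that of Fgf1, with a Log2FC of -0.24 (FDR = 0.492 by edgeR). The other 12 ligand genes were below the filter, with at most 10 counts in a library. In 2 of these, chosen for mention after their values were seen, the Bmpr1a-cKO libraries lay below the control libraries. Fgf3 had 7, 5, 10 and 10 counts in the control and 0, 1, 2 and 0 counts in the Bmpr1a-cKO libraries, a ratio of summed counts of 0.102 after correction for library size (95% exact interval 0.0199 to 0.325, counting error only). Fgf22 had 3, 4, 6 and 6 counts in the control and 1, 1, 0 and 2 counts in the Bmpr1a-cKO libraries, a ratio of 0.229 (95% exact interval 0.0565 to 0.688).

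Among the receptors, Fgfr3 was the DEG. It had 34.3 ± 4.13 CPM in control versus 14 ± 1.43 CPM in Bmpr1a-cKO ovaries, a Log2FC of -1.30 (SE 0.102, FDR = 4.57e-07 by edgeR), and all Bmpr1a-cKO libraries were below all control libraries. Fgfr1 fell by less, from 127 ± 8.59 to 103 ± 7.62 CPM with a Log2FC of -0.31 (FDR = 0.00336 by edgeR), and under scaling to germ cell markers it met the thresholds, with a Log2FC of -0.62 (FDR = 0.0117). Fgfr2 (Log2FC -0.07, FDR = 0.543 by edgeR) and Fgfr4 (Log2FC -0.30, FDR = 0.119 by edgeR) did not pass, though Fgfr4 did under scaling to germ cell markers (FDR = 0.0426). Pregranulosa marker sums were also lower in Bmpr1a-cKO ovaries, 0.82 of control, and their part in the receptor values was not tested. Fgfr3 shares 998 bases of exon with G630022F23Rik and Fgfr1 164 bases with Gm16159, both on the opposite strand. Fgfr2 shares 314 bases of exon with other genes on its own strand, where strand does not separate the reads.

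Between receptor and ERK, 1 of 14 adaptor and RAS genes was a DEG, the exchange factor Sos1, which rose from 114 ± 8 to 185 ± 11.8 CPM (Log2FC 0.70, FDR = 2.52e-06 by edgeR). Under scaling to germ cell markers its Log2FC was 0.36 (FDR = 0.139). In this list 1 other gene passed the FDR alone, the adaptor Gab2, mentioned after its values were seen, with a Log2FC of -0.32 (FDR = 0.000903 by edgeR). Of 12 kinase genes, 5 were higher and 0 lower at an FDR below 0.05, beside 17.3% of all genes higher and 12.5% lower. The DEG was the scaffold Ksr2, which went from 6.93 ± 0.934 to 13.4 ± 1.21 CPM (Log2FC 0.95, FDR = 5.28e-05 by edgeR). Examples that passed the FDR alone, chosen for mention after their values were seen, were Braf (Log2FC 0.35), Map2k1, which encodes MEK1 (0.30), and the ERK-activated kinase Rps6ka1 (0.26).

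Inhibitors outside the 9 genes went in both directions, with 2 of 12 higher and 3 lower at an FDR below 0.05. The DEGs were the phosphatases Dusp5 and Dusp9. Dusp9, which acts on ERK in the cytoplasm, fell from 135 ± 21.9 to 65.8 ± 11.1 CPM (Log2FC -1.03, FDR = 1.42e-05 by edgeR). Dusp5, a nuclear ERK phosphatase, fell from 31.0 ± 6.33 to 15.1 ± 0.998 CPM (Log2FC -1.03, FDR = 2.74e-05 by edgeR) and shares 547 bases of exon with AC137853.2 on the opposite strand. The phosphatase genes of the family therefore differed in direction, with Dusp4 higher, Dusp5 and Dusp9 lower and Dusp6 not past the thresholds. The 3 others that passed the FDR, mentioned after their values were seen, were Il17rd (SEF), a membrane inhibitor of FGF signalling (Log2FC 0.48), the ubiquitin ligase Cbl (0.25) and Dusp16 (-0.32).

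Of 11 ETS and other ERK-linked transcription factors, 2 were higher and 0 lower at an FDR below 0.05, and 0 were DEGs by edgeR. Srf, which drives immediate early genes together with ETS partners, had the lowest FDR (Log2FC 0.21, FDR = 0.0134 by edgeR), but under scaling to germ cell markers it turned to -0.12 (FDR = 0.616). The other was its partner Elk1 (Log2FC 0.28, FDR = 0.019 by edgeR), mentioned after its values were seen. Cic, the repressor of Etv4 and Etv5, had a Log2FC of -0.03 (FDR = 0.772 by edgeR).

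Immediate early and other ERK-induced genes held 12 tested members, of which 4 were higher and 3 lower at an FDR below 0.05. Egr4, a zinc finger factor, had 2, 3, 1 and 3 counts in the control and 18, 60, 30 and 63 counts in the Bmpr1a-cKO libraries. It passed the filter on low counts through the Bmpr1a-cKO libraries alone, and its place among the 4 higher genes depended on that. The ratio of the summed counts, corrected for library size, was 20.6 (95% exact interval 10.6 to 45.9, counting error only). Egr1 rose from 8.5 ± 0.968 to 13.6 ± 0.773 CPM (Log2FC 0.69, FDR = 0.0003 by edgeR), and the ephrin receptor Epha4 from 13.2 ± 2.91 to 21.8 ± 2.46 CPM (Log2FC 0.70, FDR = 0.00115 by edgeR). Under scaling to germ cell markers both missed the threshold, with FDRs of 0.22 and 0.151. Ccnd1, which encodes cyclin D1, fell from 81.7 ± 10.1 to 46.5 ± 1.81 CPM (Log2FC -0.81, FDR = 4.3e-06 by edgeR) and shares 1100 bases of exon with LTO1 on the opposite strand. The 3 that passed the FDR alone, mentioned after their values were seen, were Epha2 (Log2FC 0.47), Phlda1 (-0.49) and Jun (-0.23).

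**Figure D5:**
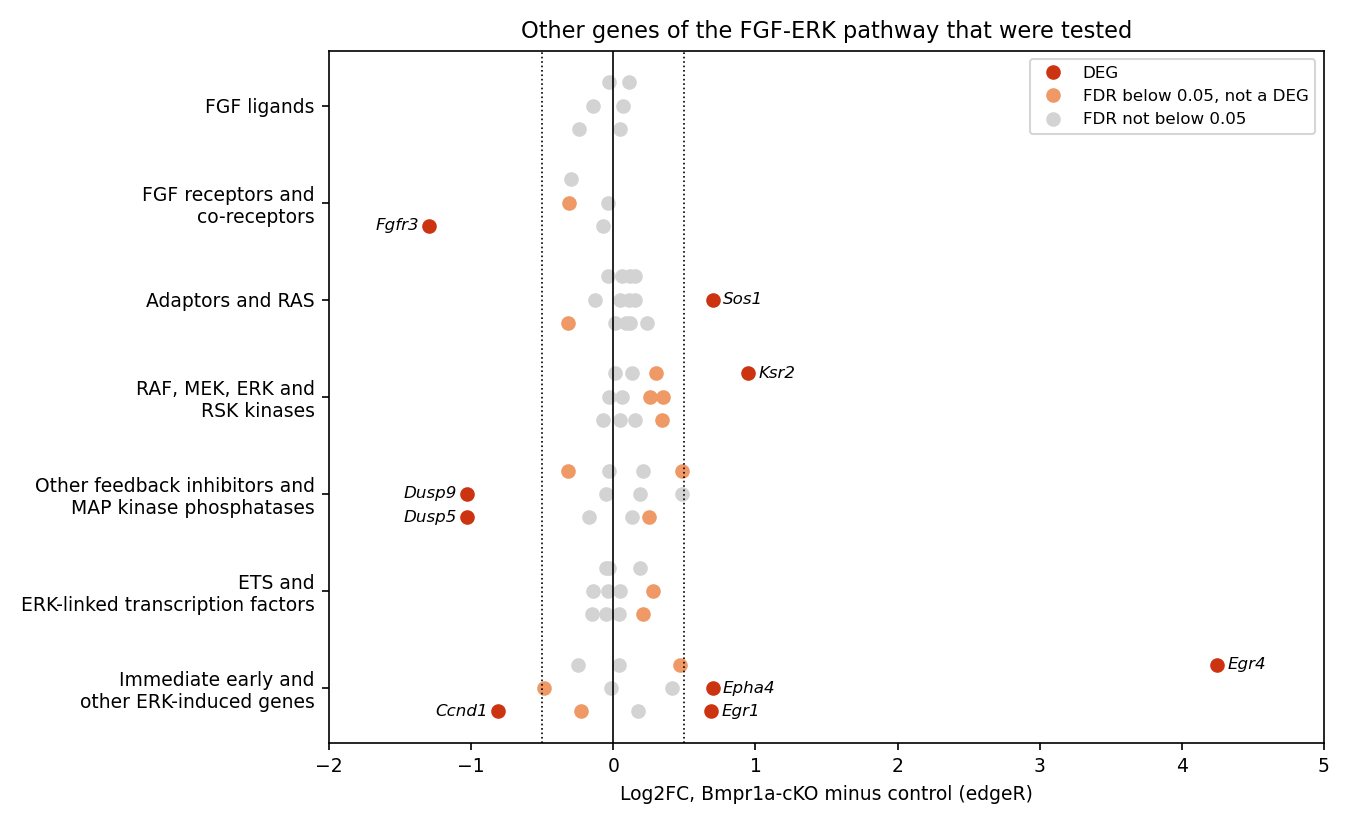
Log2FC of Bmpr1a-cKO over control for the tested genes of the 7 pathway lists, a row per list; each point is a gene, coloured by whether it was a DEG, passed the FDR alone or did neither, DEGs are named, and dotted lines mark the threshold of 0.5 in either direction. Fgfr3 (-1.30), Dusp5 and Dusp9 (-1.03 each) and Ccnd1 (-0.81) are the downregulated DEGs, Egr4 lies far to the right at a fitted value of 4.25 that rests on at most 3 counts per control library, and no ligand is a DEG.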

How the data were processed

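Ovaries of E14.5 embryos were pooled into 4 control and 4 Bmpr1a-cKO libraries, from 8 embryos of each genotype in 6 litters, with the litter of a library not given. The libraries were strand-specific and paired-end. According to the methods and the submitters' processing notes, the authors checked reads with FastQC 0.11.9, trimmed them with Trimmomatic 0.39 and mapped and counted them with STAR 2.5.2 on mm10. They deposited, for each library, whole-number counts per gene symbol without normalization. The annotation, strand setting and treatment of multiply mapped reads in counting are not given in the sources used here. A deposited table of CPM values was not used.

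From the counts, CPM (TMM), Log2FC and FDR came from edgeR 4.0.16 under R 4.3.3 (filterByExpr, quasi-likelihood F test, two-sided, Benjamini-Hochberg over 14249 genes), with genotype as the sole factor. Thresholds were those of the study. Log2 CPM carried a prior count of 2. Exon lengths and overlaps came from GENCODE vM21. Depth was 8562961 to 15365052 counts per library. Intervals cover counting error only, and p-values measure the spread between pools, which includes animals and library preparation. The members and lists were chosen with earlier results of these data known. Named pathway genes were DEGs and, in each list with fewer than 2 of these, the gene with the lowest FDR, together with Fgfr1 to Fgfr4, Fgf9 and Cic. Other pathway genes named were chosen after their values were seen. Values of 1 gene of the lists are not reported here. The promoter motifs AGGAAG and GGCGCC were added later. Alternatives were limma-voom (limma 3.58.1), DESeq2 1.42.0, a likelihood ratio test, other scalings and filters, a replicate block, and leaving out each library. On simulated data for the comparison of genotypes over 14249 genes, 190 of 199 changed genes were called with 4 false calls. Recovery of genes with a Log2FC near the threshold of 0.5 was not tested separately.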

Additional observations from a re-analysis of the deposited data

Results flagged for a closer look

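Among 68 groups of 4 libraries examined for a value far from the rest, 4 had one, and chance gives about 1 in 20. Spred2 in Bmpr1a-cKO library 1 was at 46.6 CPM, below 53.4 to 54.4 CPM in the other 3, with a gap of 0.865 of the range of the group. Without this library the Log2FC of Spred2 was 0.66. Fgfr1 in control library 2 was at 114 CPM (gap 0.863 of the range). Srf in Bmpr1a-cKO library 3 was at 67.6 CPM (gap 0.859 of the range). Ccnd1 in Bmpr1a-cKO library 3 was at 49.2 CPM (gap 0.941 of the range).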

How the results depend on the processing

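Etv4 and Etv5 met the thresholds in all 18 alternative fits, with a Log2FC of 1.09 to 1.24 and 1.12 to 1.33 when 1 library was left out. These fits reuse the libraries and the comparison that helped to choose the 9 genes, so for those genes they are a description of processing alone. Dropping the fold-change threshold gave 4242 genes in place of 1449, and 23 pathway genes in place of 9. Scaling to germ cell markers gave 3130 DEGs, 2 of the 9 genes in place of 4 (Dusp4 and Spred2 missed the thresholds), 13 pathway genes in place of 9, and a Log2FC of -0.12 for Srf. That scaling shifts all genes by construction. With 1 library left out, DEGs ran from 1288 to 1627, members meeting the thresholds from 3 to 4 (3 without Bmpr1a-cKO library 2), DEGs of the pathway lists from 9 to 11, separated neighbours among the control levels from 4 to 6, and marker lists without overlap from 3 to 6, the 6 being without Bmpr1a-cKO library 1. Dusp4 had a Log2FC of 0.59 without control library 4 and 1.0 without control library 3. With the replicate number as a block there were 1457 DEGs, 4 of the 9 genes and 9 pathway genes. Deviations of same-numbered libraries had correlations of 0.198, 0.161, 0.108 and -0.0871, and those of other pairs ran from -0.198 to 0.182. Whether the numbers pair the libraries cannot be told from these values. Counts of 29 to 104 per library limit the precision of Etv4.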

Other observations

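Egr2 and Egr3, zinc finger factors of the same family as Egr1 and Egr4, were below the filter on low counts and are named here after their values were seen. Egr2 had 4, 1, 4 and 4 counts in the control and 8, 12, 9 and 10 counts in the Bmpr1a-cKO libraries, a ratio of summed counts of 3.26 after correction for library size (95% exact interval 1.7 to 6.65, counting error only). Egr3 had 1, 3, 1 and 4 counts in the control and 5, 5, 3 and 5 counts in the Bmpr1a-cKO libraries, a ratio of 2.17 (95% exact interval 0.926 to 5.49).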
